A study of Mus musculus with 11 samples.

Results

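The tetraspanin family was taken as the genes whose symbol is Tspan followed by a number, together with *Cd9*, *Cd37*, *Cd53*, *Cd63*, *Cd81*, *Cd82* and *Cd151*. This gave 27 of the 55401 genes counted. They were followed over 11 RNA-seq libraries of islet cells that were sorted by FACS from 4 mice. The sample labels name 4 libraries NNAT-positive beta cells, 4 libraries NNAT-negative beta cells and 3 libraries non-beta cells, and mouse 4 had no non-beta library. All groups came from chow fed male C57BL6/J mice, 10 weeks old by the labels, that carried RIP-Cre, STOP-tdTomato and Nnat-EGFP, and no other treatment is given. RIP-Cre, driven by the rat insulin promoter, switched on tdTomato in beta cells, and eGFP came from an *Nnat* reporter transgene inherited from the father. The beta cell fractions were therefore separated by a reporter and not by the endogenous protein, and non-beta cells were the mixture of islet cells without tdTomato. Total counts were between 30420352 and 43238376 per library. Levels are given in CPM, counts scaled to a common library size with TMM factors.

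The names of the beta cell fractions need care. In mice 1 to 4, *Nnat* had 50.5, 46.4, 46.0 and 101 CPM where the label says NNAT-positive and 74.8, 80.8, 66.5 and 153 CPM where it says NNAT-negative. It was thus lower under the positive label in 4 of 4 mice, beside 4.4% of all tested genes. The ranges overlapped, and the log2 fold change of −0.62 was not called (adjusted *p*=0.444, edgeR's quasi-likelihood test). The study's own table of normalised counts heads the beta cell libraries the other way round. They are called labelled-positive and labelled-negative here. With the names exchanged, each difference between the beta cell fractions would keep its size and change its sign.

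Tetraspanins are small proteins that cross the membrane several times and gather integrins, immunoglobulin-type proteins, proteases and receptors into membrane microdomains. Most act at the cell surface, some in endosomes, lysosomes and secretory granules, and several are used as markers of extracellular vesicles. In islets, CD9 has been used as a surface marker of human beta cell subtypes and CD81 as a marker of immature or stressed beta cells. Tetraspanin 7, encoded by *Tspan7*, is an autoantigen of type 1 diabetes. The TspanC8 members (*Tspan5*, *Tspan10*, *Tspan14*, *Tspan15*, *Tspan17* and *Tspan33*) escort the protease ADAM10 to the cell surface.

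Per kilobase of exon, beta cells carried mainly a few members. *Tspan13* had the highest mean level, 146 ± 25.9 CPM per kilobase over the 8 beta cell libraries (SD, *n*=8), followed by *Cd63* at 137 ± 32.2. Their ranges, 99.2 to 168 and 88.1 to 177 CPM per kilobase, overlapped. *Tspan3* (55.7 ± 8.43 CPM per kilobase), *Tspan7* (55.0 ± 8.93) and *Tspan31* (36.7 ± 5.99) came next, all SD with *n*=8. *Tspan3* and *Tspan7* overlapped each other and lay below every value of *Tspan13* and *Cd63*. *Tspan13* and *Cd63* together made up 45.3% to 50.9% of the summed family level per kilobase in labelled-positive cells, 49.9% to 57.3% in labelled-negative cells and 18.3% to 21.2% in non-beta cells.

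The order was different in non-beta cells. *Cd81* was first there at 90.6 ± 1.89 CPM per kilobase (SD, *n*=3), above every non-beta value of the other members. *Cd63* (62.2 ± 6.43), *Tspan7* (60.7 ± 7.78) and *Tspan13* (59.2 ± 4.39 CPM per kilobase) followed with overlapping ranges. *Cd81* ranked 9 of 27 in labelled-positive and 12 of 27 in labelled-negative cells. *Cd9* ranked 10 of 27 in non-beta cells, at 28.3 ± 7.14 CPM per kilobase, and 19 of 27 in both beta cell fractions. The summed share of *Cd81*, *Cd9*, *Cd151*, *Tspan8* and *Tspan12* was 34.7% to 36.6% in non-beta cells, 5.66% to 7.07% in labelled-positive and 2.88% to 4.38% in labelled-negative cells. The summed family level was 611 to 627 CPM per kilobase in non-beta cells, 414 to 622 in labelled-positive and 414 to 616 in labelled-negative cells, and these ranges overlapped.

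**Figure D1:**
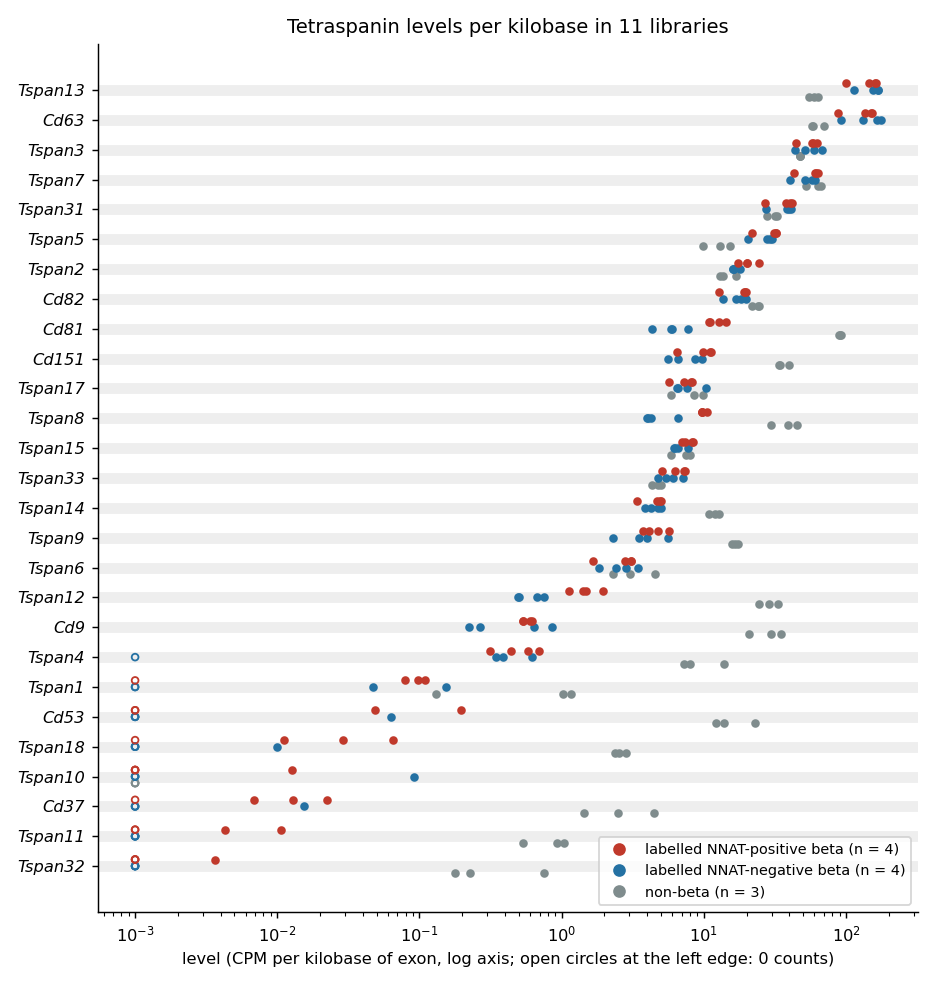
Level of each of the 27 tetraspanins (CPM per kilobase of exon, log axis) in every library, ordered by the mean over the 8 beta cell libraries. Each filled point is 1 library, open circles at the left edge are libraries with 0 counts, and colours give the labelled fraction. *Tspan13* and *Cd63* lead in beta cells, while *Cd81* leads in non-beta cells at 90.6 ± 1.89 CPM per kilobase.

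The first comparison asked whether beta cells sorted by the *Nnat* reporter differ in tetraspanins. *Cd81* was the 1 member of the 26 tested that passed the threshold, an adjusted *p* below 0.01 over 17424 genes, and it was higher in labelled-positive cells. Over all tested genes 0.0517% were called higher there and 0 lower, and 0.0459% were called with a more than 2-fold change, *Cd81* among them. At an unadjusted *p* below 0.05, 7 members were higher and 0 lower, beside 4.82% and 0.746% of all genes. *Tspan18* is one of the 7, on 32 and 3 counts in all. DESeq2 called 3 members higher and 0 lower, beside 0.706% and 0.0803% of all genes. With RLE size factors, without the mouse as a block, with only the libraries of the 2 fractions or with the 10 most abundant genes left out, edgeR called 0 members.

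*Cd81* encodes a surface tetraspanin that partners with immunoglobulin-type proteins. It lies on the plus strand of chromosome 7 of GRCm38, from 143052739 to 143067934. In mice 1 to 4, labelled-positive cells had 36.9, 41.0, 31.2 and 31.8 CPM of *Cd81* and labelled-negative cells 22.2, 16.9, 17.3 and 12.4 CPM. Non-beta cells of mice 1 to 3 had 266, 255 and 261 CPM. The 3 ranges did not overlap, with labelled-negative cells lowest and non-beta cells highest. Between the beta cell fractions the log2 fold change of *Cd81* was 1.06 (SE 0.11, adjusted *p*=0.00763, edgeR's quasi-likelihood test), a 2.08-fold difference seen in 4 of 4 mice. Leaving out any 1 of the 4 mice lost the call, with log2 fold changes from 0.92 to 1.17 and adjusted *p* values from 0.0146 to 0.109 in the same test. Without the mouse as a block the log2 fold change was 1.04 and edgeR's adjusted *p* was 0.0713. The opposite-strand gene *R74862* covers 104 exonic bases of *Cd81*, and whether the counting used the strand is not stated.

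*Tspan8* and *Tspan12* are named beside *Cd81* because their ranges did not overlap between the beta cell fractions either, and they were chosen after their values were seen. Non-overlap was found for 3 of the 26 members and 2.05% of all tested genes. *Tspan8*, a tetraspanin of epithelia, had 16.5, 17.8, 16.6 and 16.6 CPM in labelled-positive cells of mice 1 to 4, 6.76, 6.91, 7.24 and 11.2 CPM in labelled-negative cells and 50.3, 77.4 and 66.6 CPM in non-beta cells. Mouse 4 had the highest labelled-negative value, which still lay below all labelled-positive values. The log2 fold change of *Tspan8* was 1.10 (SE 0.16, adjusted *p*=0.0428, edgeR's quasi-likelihood test), higher in 4 of 4 mice and not past the threshold. *Tspan12*, which strengthens signalling of the Norrin receptor FZD4, had 6.46, 3.74, 4.92 and 4.66 CPM in labelled-positive cells, 1.67, 1.64, 2.22 and 2.49 CPM in labelled-negative cells and 95.3, 109.6 and 80.8 CPM in non-beta cells. Its log2 fold change was 1.28 (SE 0.21, adjusted *p*=0.0665, same test), higher in 4 of 4 mice. Both were called with DESeq2, at adjusted *p* values of 1.82e-09 and 1.43e-07, and by edgeR without a filter on low counts, at 0.00275 and 0.00475. They were called in no other fit. For *Tspan8*, edgeR's adjusted *p* was 0.14 without the mouse as a block and 0.0299 to 0.316 with a mouse left out. For *Tspan12* it was 0.0713 without the block, 0.226 with only the libraries of the 2 fractions and 0.126 to 0.288 with a mouse left out.

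**Figure D2:**
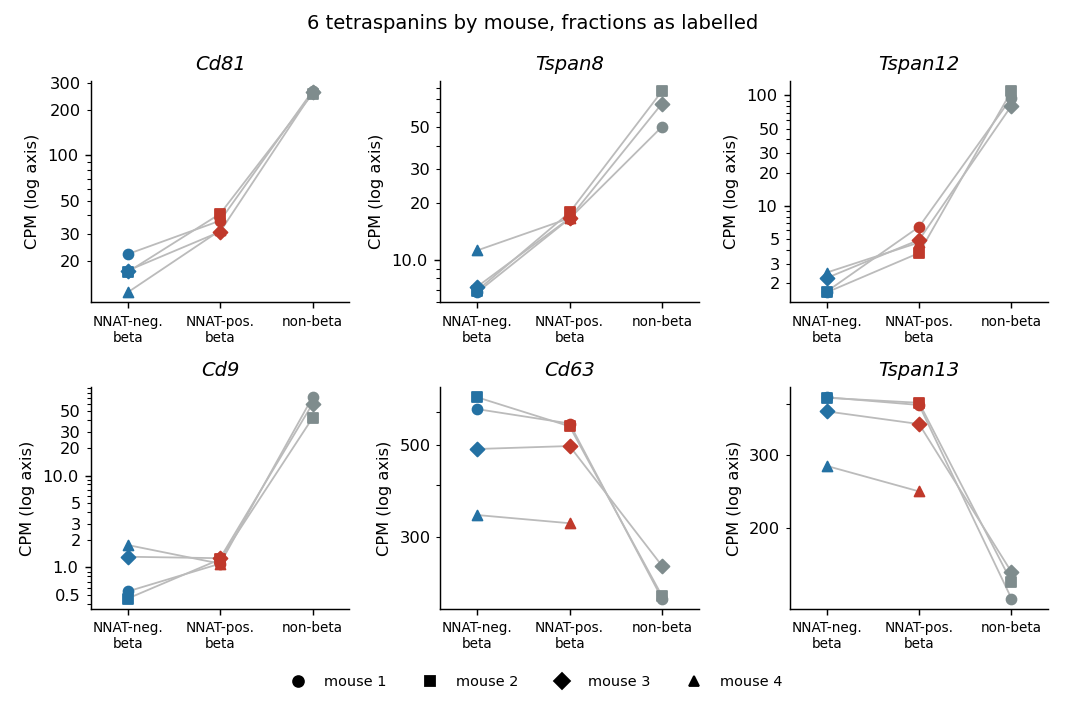
Level (CPM, log axis, a separate scale in each panel) of 6 tetraspanins in each fraction, with a marker shape per mouse and lines joining the libraries of 1 mouse. Mouse 4 has no non-beta library. *Cd81*, *Tspan8* and *Tspan12* are lowest in labelled-negative and highest in non-beta cells, *Cd9* crosses between mice, and *Cd63* and *Tspan13* are lowest in non-beta cells.

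The promoters of these 3 genes are shown because the genes stood apart together. Each window runs from 250 bases before to 50 bases after the RefSeq start on GRCm38.p6, 5′ to 3′ on the gene's strand. Capitals mark matches on either strand to the GC box GGGCGG, the CCAAT box, the TATA box spelled TATAAA, the E-box CAGATG of the kind NEUROD1 binds, and the forkhead letters TGTTTAC. The windows are chr7:143052500-143052799 on the plus strand for *Cd81*, chr10:115817034-115817333 on the plus strand for *Tspan8* and chr6:21852484-21852783 on the minus strand for *Tspan12*.
Cd81: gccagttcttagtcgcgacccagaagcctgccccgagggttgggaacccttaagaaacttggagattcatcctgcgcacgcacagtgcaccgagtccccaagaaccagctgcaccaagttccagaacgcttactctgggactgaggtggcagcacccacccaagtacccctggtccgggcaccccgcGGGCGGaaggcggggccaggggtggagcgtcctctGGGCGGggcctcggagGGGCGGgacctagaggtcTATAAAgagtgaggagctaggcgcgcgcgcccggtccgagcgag
Tspan8: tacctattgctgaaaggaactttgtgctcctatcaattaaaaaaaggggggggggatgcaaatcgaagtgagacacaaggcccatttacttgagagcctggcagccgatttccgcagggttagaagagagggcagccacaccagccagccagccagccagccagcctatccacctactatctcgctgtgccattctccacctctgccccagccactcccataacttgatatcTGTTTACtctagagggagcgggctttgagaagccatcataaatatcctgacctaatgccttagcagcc
Tspan12: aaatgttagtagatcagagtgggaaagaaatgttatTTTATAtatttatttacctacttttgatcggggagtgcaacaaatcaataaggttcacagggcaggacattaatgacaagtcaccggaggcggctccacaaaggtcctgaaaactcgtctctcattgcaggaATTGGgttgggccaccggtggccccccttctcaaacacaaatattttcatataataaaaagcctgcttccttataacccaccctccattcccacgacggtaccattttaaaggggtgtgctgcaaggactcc
No motif was marked in all 3 windows. *Cd81* held 3 GC boxes and 1 match to TATAAA, which lies after the RefSeq start, with 23 CpG in the window. *Tspan8* held 1 forkhead match and 5 CpG, and *Tspan12* held 1 CCAAT match, 1 match to TATAAA on the opposite strand and 7 CpG. The *Tspan8* window lies inside the gene, which starts at 115816832 on the plus strand in gencode. The bases before that start were not read. Among the 32851 RefSeq windows of 300 bases, 35.7% held a GC box, 37.4% a CCAAT match, 13.6% a TATA box, 17.2% the E-box and 3.65% the forkhead letters, and the median window had 7 CpG. A match is a match of letters, and binding was not measured.

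*Cd9* and *Cd63* did not pass the test between the beta cell fractions. *Cd9* had 1.10, 1.22, 1.26 and 1.10 CPM in labelled-positive cells and 0.546, 0.457, 1.30 and 1.75 CPM in labelled-negative cells. The groups overlapped, and *Cd9* was higher in labelled-positive cells in mice 1 and 2 and lower in mice 3 and 4. Its log2 fold change was 0.27 (SE 0.33, adjusted *p*=0.961, edgeR's quasi-likelihood test) and rested on between 15 and 64 counts per library. *Cd63* had 563, 554, 497 and 324 CPM in labelled-positive cells and 609, 650.4, 489 and 339 CPM in labelled-negative cells. These ranges overlapped, and mouse 4 was the lowest of both fractions. The log2 fold change of *Cd63* was −0.10 (SE 0.11, adjusted *p*=0.955, same test), with a higher value in labelled-positive cells in 1 of 4 mice.

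No other member passed the test between the beta cell fractions. *Tspan2*, known from oligodendrocytes, had 97.3 ± 14.02 CPM in labelled-positive and 78.9 ± 4.19 CPM in labelled-negative cells (SD, *n*=4), a log2 fold change of 0.29 (SE 0.10). *Cd151*, the partner of laminin-binding integrins, had 26.4 ± 6.00 against 20.9 ± 5.12 CPM (0.33, SE 0.12). *Tspan15*, a TspanC8 member, had 63.7 ± 5.55 against 54.9 ± 6.11 CPM (0.22, SE 0.08). All 3 were higher in 4 of 4 mice and overlapped between the fractions, and edgeR's quasi-likelihood test gave an adjusted *p* of 0.681 for *Tspan2*, 0.759 for *Cd151* and 0.802 for *Tspan15*. *Tspan13*, with a log2 fold change of −0.10 (SE 0.08), was the 1 member lower in 4 of 4 mice, beside 4.4% of all genes. Altogether 9 members were higher in 4 of 4 mice, beside 11.4% of all genes. *Tspan3*, *Tspan6*, *Tspan14* and *Tspan31* lay between 0.00 and 0.02, and their sign turned with the scaling.

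Of the 20 members that pass the filter on low counts in beta cell libraries alone, 17 had a positive log2 fold change between the beta cell fractions, with a median of 0.14. Over the 14489 such genes 61% were positive and the median was 0.05. The 8 of them that were called lower than non-beta cells in both fractions were all positive, with a median of 0.46, but *Tspan14* among them turned negative under other scalings. Of the 2043 such genes, 74.9% were positive, with a median of 0.15. The 5 members called higher than non-beta cells in both had 3 positive values, beside 52.2% of 2502 genes. This split uses the same beta cell libraries as the difference it describes and carries no test.

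**Figure D3:**
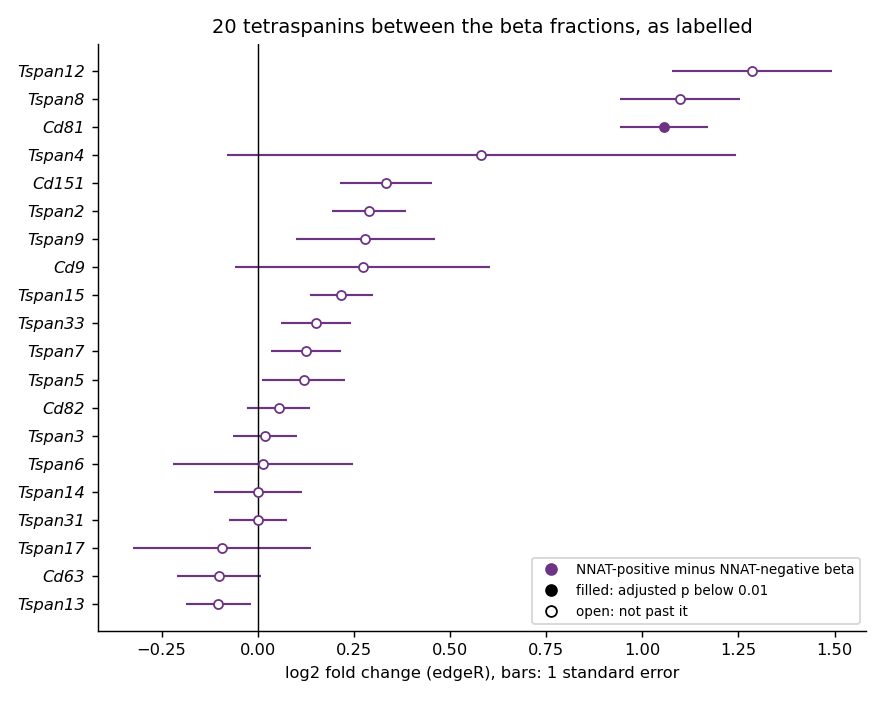
Log2 fold change (edgeR, labelled NNAT-positive minus labelled NNAT-negative) of the 20 members that pass the filter on the beta cell libraries alone. Bars are 1 SE, the filled point passed an adjusted *p* below 0.01 and open points did not. *Cd81* at 1.06, *Tspan8* at 1.10 and *Tspan12* at 1.28 stand to the right of the other members.

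Markers of other islet cells moved in the same direction as *Cd81*. Labelled-positive minus labelled-negative cells, the mean difference was 6.93% of the non-beta level for *Cd81*, 13.7% for *Tspan8*, 3.09% for *Tspan12*, 5.56% for *Cd151* and 0.266% for *Cd9*. It was 10.9% for *Sst* and 12.9% for *Hhex* of delta cells, 8.05% for *Ppy* and 6.58% for *Pyy* of PP cells, and 1.01% for *Gcg* of alpha cells. All 4 delta, 2 PP and 6 alpha cell markers listed had positive log2 fold changes, and 1, 2 and 0 of them were called. Positive too were all 6 endothelial, 8 leukocyte and 6 acinar markers, with 0 called. Of the duct, stellate and fibroblast, and Schwann cell markers, 4 of 5, 4 of 6 and 3 of 4 were positive. Of the beta cell markers 2 of 9 were positive, and over all tested genes 61.4%. The summed delta list ranged over 1403 to 2489.8 CPM in labelled-positive, 544 to 1046 in labelled-negative and 6898 to 13508 in non-beta cells. For the PP list these ranges were 299.7 to 421, 89.0 to 159 and 1857 to 3690.2 CPM. For the alpha list they were 2818 to 4077, 1587 to 2486 and 123280 to 171500 CPM. None of these endocrine markers was at 0 in all beta cell libraries. Their part in the levels of *Cd81*, *Tspan8* and *Tspan12* was not tested, and in bulk libraries fewer cells of a type and less RNA per cell cannot be told apart.

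For the 6 endothelial markers the difference was between 0.0424% and 0.144% of the non-beta level, and their sum was at most 8.51 CPM in any beta cell library and at least 2092 CPM in non-beta cells. The 8 leukocyte markers summed to 11.4 to 25.9 CPM in labelled-positive, 1.67 to 10.7 in labelled-negative and 985 to 2175 in non-beta cells. *Cd79a* among them had means of 8.84, 2.98 and 6.70 CPM in the same order. It was thus at 132% and 44.5% of its non-beta level in the beta cell fractions. The other leukocyte markers had means of at most 1.85% of theirs. The 6 acinar markers summed to 7.84 to 1948 CPM in labelled-positive, 43.2 to 381 in labelled-negative and 14236 to 55179 in non-beta cells. The 6 stellate and fibroblast markers summed to at most 4.69 CPM in any beta cell library, with *Pdgfra* at 0 in all 8. The 5 duct markers summed to 214 to 260.2 CPM in labelled-positive, 221 to 275 in labelled-negative and 284 to 463 in non-beta cells. *Krt7*, a keratin, was at 187% and 198% of its non-beta level in the beta cell fractions. The 4 Schwann cell markers summed to 9.72 to 16.4, 6.49 to 12.6 and 22.6 to 30.5 CPM and were higher in labelled-positive cells in 4 of 4 mice. *Ghrl*, the epsilon cell marker, was at most 0.137 CPM in any beta cell library. The part of these lists in the levels of the members was not tested either. Of 9 beta cell markers, 0 were called between the fractions.

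**Figure D4:**
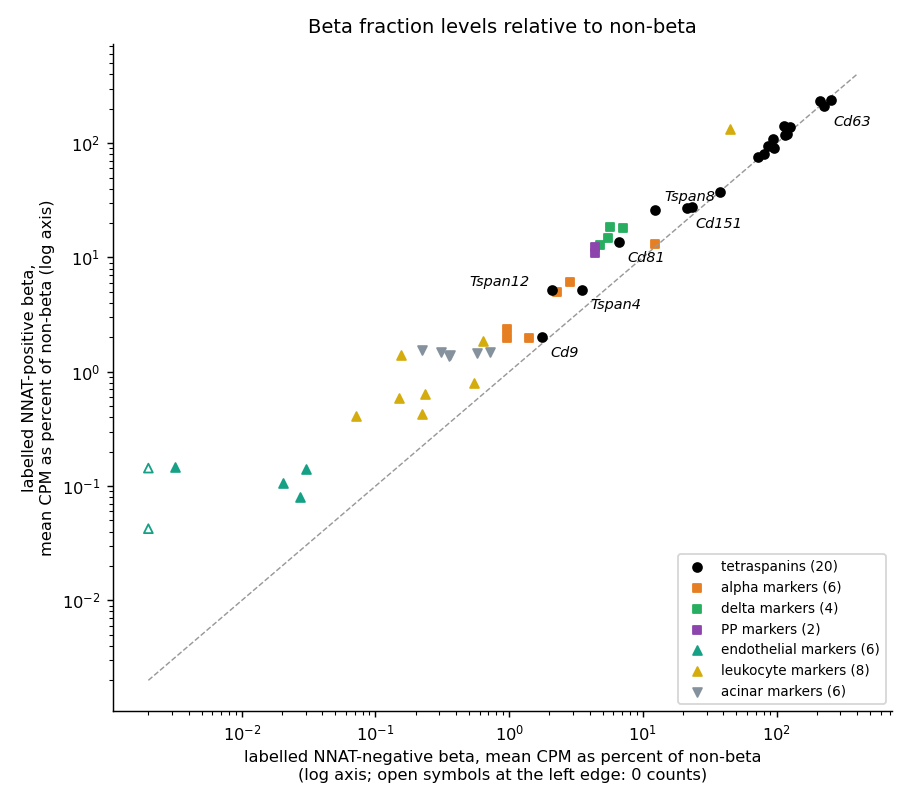
Mean CPM as a percentage of the non-beta mean in labelled-negative (x axis) and labelled-positive (y axis) cells, both log axes, for 20 tetraspanins and the markers of other cells. The dashed line marks equal levels in the beta cell fractions, and open symbols at the left edge had 0 counts in labelled-negative cells. *Cd81*, at 6.59% and 13.5%, and *Tspan8*, at 12.4% and 26.1%, lie above the line. So do all the alpha, delta, PP, endothelial, leukocyte and acinar markers plotted.

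The second comparison set each beta cell fraction against non-beta cells, and both use the same 3 non-beta libraries. Of the 26 members tested, 6 were called higher and 12 lower in labelled-positive cells, beside 15.8% and 19.1% of all genes (34.8% in either direction). In labelled-negative cells 5 were higher and 13 lower, beside 15.6% and 21.3% (36.8% in either direction). With a more than 2-fold change, 15 and 16 members were called, beside 21.6% and 23.3%, and the ranges did not overlap for 20 and 17 members, beside 50.7% and 47.4%. However, *Cd37*, *Cd53*, *Tspan1*, *Tspan11*, *Tspan18* and *Tspan32* passed the filter only through non-beta cells, so a higher level there was a condition of their being tested. Over the other 20 members the counts were 6 higher and 8 lower for labelled-positive cells, beside 19% and 14.6% of such genes. For labelled-negative cells they were 5 higher and 8 lower, beside 18.7% and 16.6%. The median log2 fold changes of these 20 members were −0.12 and −0.11, against 0.07 and 0.03 for such genes. The higher calls fell to 3 in both comparisons without the mouse as a block, and to 3 with total counts as the only scaling.

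The members higher in beta cells were led by *Tspan13*, *Tspan5* and *Cd63*. *Tspan13* had 398, 402, 357 and 245 CPM in labelled-positive, 415, 414, 384 and 283 CPM in labelled-negative and 135, 148 and 156 CPM in non-beta cells. All beta cell values lay above all non-beta values. The log2 fold change was 1.38 (SE 0.10, adjusted *p*=1.97e-06) for labelled-positive and 1.48 (SE 0.10, adjusted *p*=1.16e-06) for labelled-negative cells, edgeR's quasi-likelihood test. *Cd63*, a tetraspanin of late endosomes, lysosomes and granules, had 214, 217 and 256 CPM in non-beta cells, below all its beta cell values. Its log2 fold changes were 1.23 (SE 0.13, adjusted *p*=2.53e-05) and 1.33 (SE 0.13, adjusted *p*=1.39e-05) in edgeR's test.

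*Tspan5*, a TspanC8 member linked to Notch signalling, had 231, 237, 239 and 160.3 CPM in labelled-positive, 216, 207, 223 and 151 CPM in labelled-negative and 72.3, 113 and 95.8 CPM in non-beta cells. Mouse 4 was lowest in both beta cell fractions, and beta and non-beta ranges did not overlap. The log2 fold changes of *Tspan5* were 1.34 (SE 0.12, adjusted *p*=1.21e-05) and 1.22 (SE 0.12, adjusted *p*=2.15e-05, edgeR's quasi-likelihood test). The promoter of *Tspan13*, the member with the largest positive change against non-beta cells in both comparisons, is chr12:36042429-36042728 on the minus strand of GRCm38.p6, with the same motifs in capitals.
Tspan13: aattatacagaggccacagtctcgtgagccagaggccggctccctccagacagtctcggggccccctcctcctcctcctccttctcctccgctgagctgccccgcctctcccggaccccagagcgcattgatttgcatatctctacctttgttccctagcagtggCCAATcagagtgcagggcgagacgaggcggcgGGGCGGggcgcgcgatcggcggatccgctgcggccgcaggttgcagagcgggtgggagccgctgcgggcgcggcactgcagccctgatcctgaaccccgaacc
This window held 1 GC box, 1 CCAAT match and 26 CpG, and 83.1% of RefSeq windows had fewer CpG. The windows of *Cd63* and *Tspan5* held 0 and 3 GC boxes and 6 and 43 CpG. The *Cd63* window, chr10:128909095-128909394, lies inside the gene, which starts at 128900989 on the plus strand in gencode.

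*Tspan33* and *Tspan31* were called higher by less. *Tspan33*, a TspanC8 member known from erythroid cells, had 33.8 ± 5.58, 30.4 ± 5.31 and 24.3 ± 1.69 CPM in labelled-positive, labelled-negative and non-beta cells (SD, *n*=4, 4 and 3). Its log2 fold changes were 0.57 (SE 0.10) and 0.42 (SE 0.10), and the second call was lost without any 1 of the mice. The first was lost without mouse 3 (adjusted *p*=0.0131), with total counts only (0.0126) and without the mouse as a block (0.0419, all edgeR's quasi-likelihood test). *Tspan31* had 80.7 ± 14.6, 80.5 ± 13.7 and 67.4 ± 5.44 CPM, with log2 fold changes of 0.38 (SE 0.09) and 0.38 (SE 0.09). Its ranges overlapped with non-beta cells, both calls were lost without any 1 of the mice, and *Cdk4* covers 641 of its exonic bases on the opposite strand. *Tspan2* was called for labelled-positive cells (0.54, adjusted *p*=0.00207) and not for labelled-negative cells (0.25, adjusted *p*=0.0787, edgeR's quasi-likelihood test), and the test between these fractions was not passed. The first of these calls was lost in 4 of 12 fits, with adjusted *p* values in the same edgeR test of 0.03 with total counts only, 0.0101 without the block, 0.0186 without mouse 1 and 0.023 without mouse 3.

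*Tspan7* and *Tspan3*, both abundant, were not called in any of these edgeR comparisons. *Tspan7* had 406 ± 67.0, 372 ± 63.4 and 429 ± 55.0 CPM in labelled-positive, labelled-negative and non-beta cells (SD, *n*=4, 4 and 3), with overlapping ranges. Its log2 fold changes against non-beta cells were 0.03 (SE 0.10) and −0.09 (SE 0.10), and the sign of the first turned with the scaling. *Tspan3*, known from blood stem cells, had 239 ± 32.9, 237 ± 44.1 and 204 ± 1.19 CPM, with log2 fold changes of 0.33 (adjusted *p*=0.0156) and 0.31 (adjusted *p*=0.0196, edgeR's quasi-likelihood test).

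Of the classical surface members, 3 of 4 were called lower in both beta cell fractions. Of the 14489 genes that pass the filter on beta cell libraries alone, 2043 were so called. *Cd9*, which acts in cell fusion and adhesion, had 71.2, 42.3 and 60.3 CPM in non-beta cells against at most 1.75 CPM in any beta cell library. Its log2 fold changes were −5.74 (SE 0.33, adjusted *p*=5.24e-07) and −6.01 (SE 0.35, adjusted *p*=4.98e-07, edgeR's quasi-likelihood test). *Cd81* changed by −2.80 (SE 0.13, adjusted *p*=1.47e-07) and −3.85 (SE 0.13, adjusted *p*=3.06e-08, same test). *Cd151* changed by −1.76 (SE 0.13) and −2.10 (SE 0.13). *Cd82* was not called here, though it was in 3 and 4 of 12 fits, at −0.29 (SE 0.09) and −0.34 (SE 0.09).

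The balance of the marker members can be read as ratios of levels per kilobase within a library. *Cd81* was 2.65 to 4.28 times *Cd9* in non-beta cells, 17.6 to 23.9 times in labelled-positive and 5.03 to 28.8 times in labelled-negative cells, so the beta cell fractions overlapped. *Cd63* was 0.629 to 0.767 times *Cd81* in non-beta cells, 7.96 to 12.4 times in labelled-positive and 21.4 to 30.1 times in labelled-negative cells, and these 3 ranges did not overlap.

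*Tspan8*, *Tspan12*, *Tspan4*, *Tspan9* and *Tspan14* were called lower than non-beta cells in both fractions, with ranges that did not overlap. *Tspan12* changed by −4.31 (SE 0.21) in labelled-positive and −5.60 (SE 0.23) in labelled-negative cells. *Tspan8* changed by −2.00 (SE 0.17) and −3.10 (SE 0.18). *Tspan4*, used as a marker of migrasomes, had 1.10 ± 0.361, 0.734 ± 0.553 and 21.1 ± 7.81 CPM (SD, *n*=4, 4 and 3), and 1 labelled-negative library had 0 counts. *Tspan9* changed by −1.83 and −2.11, and *Tspan14*, a TspanC8 member, by −1.32 in both.

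**Figure D5:**
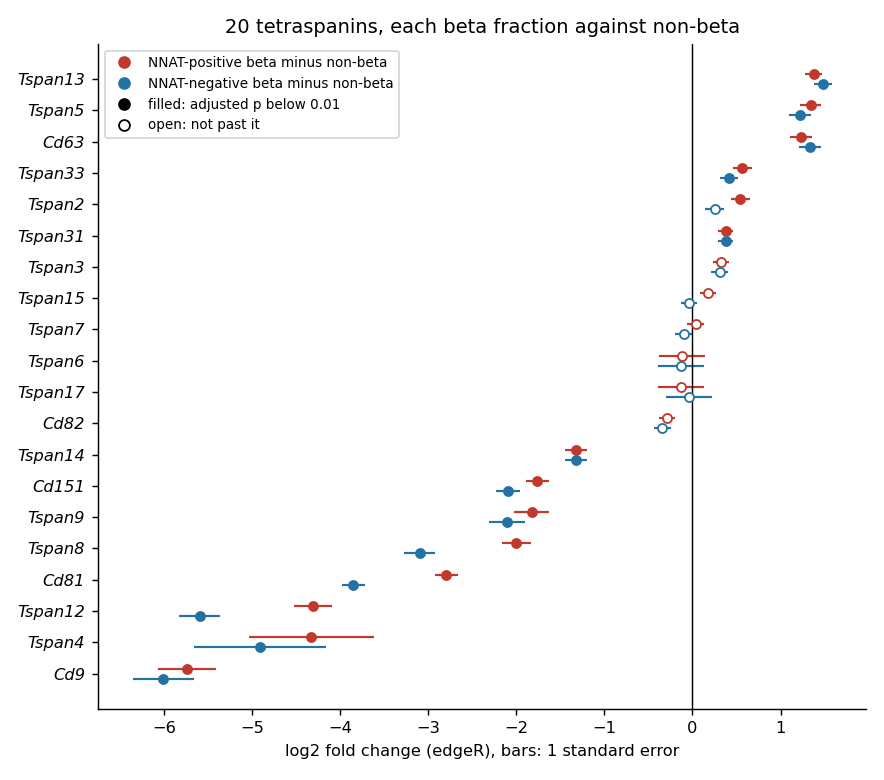
Log2 fold change (edgeR) of 20 tetraspanins in each labelled beta cell fraction against non-beta cells, with bars of 1 SE and filled points where the adjusted *p* was below 0.01. The 6 members that pass the filter only through non-beta cells are left out. *Tspan13*, *Tspan5* and *Cd63* lie above 1, and *Cd9* is lowest, at −5.74 and −6.01.

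In the TspanC8 group, 2 of the 5 tested members (*Tspan5* and *Tspan33*) were higher and 1 (*Tspan14*) lower than non-beta cells in both fractions. Of the 14489 genes that pass the filter on beta cell libraries alone, 2502 were higher and 2043 lower in both. *Tspan15* and *Tspan17* were not called, at 0.18 and −0.13 in labelled-positive cells and −0.04 and −0.04 in labelled-negative cells. *Tspan10*, known from pigment and retinal cells, was not tested, since it had 7 counts in all, 6 of them in the labelled-negative library of mouse 4. Their client *Adam10* had 66.3 ± 3.67, 64.0 ± 8.86 and 102 ± 11.6 CPM in labelled-positive, labelled-negative and non-beta cells (SD, *n*=4, 4 and 3), and was called lower in both, at −0.57 and −0.63.

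The leukocyte members and a few others were at or near 0 in beta cells, and their raw counts are given by mouse. *Cd53*, found on most leukocytes, had 3, 0, 13 and 0 counts in labelled-positive, 0, 0, 0 and 4 in labelled-negative and 1854, 797 and 896 in non-beta cells. Most of its labelled-positive counts came from mouse 3 and all labelled-negative counts from mouse 4, so no pooled ratio is given. *Cd37*, a B cell tetraspanin, had 0, 1, 3 and 2 counts in labelled-positive, 0, 0, 0 and 2 in labelled-negative and 726, 331 and 189 in non-beta cells. *Tspan18*, known from endothelium, had 19, 0, 9 and 4, then 0, 0, 0 and 3, against 1075, 733 and 774 counts in non-beta cells. Both were highest by far in non-beta cells, with 0 counts in at least 1 library of each beta cell fraction. *Tspan11* had 3 and 0 counts in all in the beta cell fractions and 227, 107 and 207 in non-beta cells, and no ratio is given. *Tspan32*, found on blood cells, had 1 and 0 counts in all in the beta cell fractions and 218, 53 and 41 in non-beta cells. *Tspan1*, an epithelial member, had 9, 0, 7 and 10 and 0, 0, 13 and 4 counts in the beta cell fractions and 14, 103 and 88 in non-beta cells, and was not called. Of the leukocyte markers given above, all but *Cd79a* were low in the same libraries. The part of this list in these values was not tested.

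Several members lie next to each other in the genome. *Cd151* and *Tspan4* are 3766 bases apart on chromosome 7, and both were called lower in beta cells. *Tspan11* and *Tspan9* are 7418 bases apart on chromosome 6. *Tspan32* and *Cd81* are 33094 bases apart on chromosome 7, in a region known for imprinted genes. *Cd81* had at least 12.4 CPM in each beta cell library, where *Tspan32* had at most 0.0228. *Tspan18* and *Cd82* are 84605 bases apart on chromosome 2. *Tspan11*, *Tspan18* and *Tspan32* were tested only through their non-beta level, so their calls are not set against those of their neighbours.

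Mouse 4 stood apart in many members. In both its beta cell libraries, 12 of 26 members had their lowest value among the mice and 0 their highest, while 19.4% of all genes were lowest and 21.8% highest there. The 12 were *Cd63*, *Cd82*, *Cd151*, *Tspan3*, *Tspan5*, *Tspan6*, *Tspan7*, *Tspan13*, *Tspan14*, *Tspan15*, *Tspan31* and *Tspan33*. Its level relative to the other mice was 0.595 for *Cd63*, 0.668 for *Tspan13*, 0.690 for *Tspan5* and 0.708 for *Tspan7*, against 0.766 for *Cd81* and 1.496 for *Cd9*. Without mouse 4, *Cd81* had a log2 fold change of 0.92 between the beta cell fractions (adjusted *p*=0.0675, edgeR's quasi-likelihood test). In the same fit the members higher than non-beta cells numbered 5 for labelled-positive and 3 for labelled-negative cells.

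Proteins that tetraspanins bind were read from a list of 32 genes, of which 31 were counted and tested. Between the beta cell fractions 0 were called higher and 0 lower. Against non-beta cells, 2 were higher and 18 lower in labelled-positive cells, and 1 was higher and 19 lower in labelled-negative cells, of 31 tested. Over all genes these shares were 15.8% and 19.1%, then 15.6% and 21.3%. *Cldn7*, a claudin found with EpCAM and tetraspanins, was the 1 partner higher in both, at 0.95 (adjusted *p*=0.0015) and 1.05 (adjusted *p*=0.000786, edgeR's quasi-likelihood test). The most abundant partners per kilobase in beta cells were *Itgb1* (63.2 CPM per kilobase), *Epcam* (62.8) and *Pdcd6ip* (29.96). *Itgb1*, the integrin beta 1 chain, was called lower in both fractions, at −1.03 and −1.13. The CD9 and CD81 partners *Ptgfrn* and *Igsf8* differed from each other. *Ptgfrn* had 2.41 ± 0.694, 1.09 ± 0.694 and 101 ± 29.2 CPM in labelled-positive, labelled-negative and non-beta cells (SD, *n*=4, 4 and 3) and was called lower in both. *Igsf8* had 42.4 ± 5.74, 43.9 ± 10.7 and 45.6 ± 7.58 CPM and was not called. Of tetraspanins outside the naming rule, *Rom1* had 16.4 ± 3.05, 16.3 ± 3.95 and 12.7 ± 1.11 CPM and was not called, *Upk1b* had 0 counts in beta cells and 6.28 ± 2.35 CPM in non-beta cells, and *Prph2* had 0 counts in every library.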

How the data were processed

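Reads were mapped by the authors to mm10 (STAR 2.7.1a), who deposited whole-number counts per gencode gene for 11 libraries, not normalised. The libraries were poly(A)-selected, and the strand setting of the counting is not given in the sources used here. The study's own comparisons, made with DESeq2 1.32.0, were not used. Positions come from gencode release 21 on GRCm38, which held 55141 of the 55401 genes.

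Differences were tested with edgeR 4.0.16 in R 4.3.3 by its quasi-likelihood test, using TMM factors and filterByExpr by fraction. The fit held every library and a term for mouse, and Benjamini-Hochberg adjustment ran over the 17424 genes kept, with calls at an adjusted *p* below 0.01. The SE was taken from the log2 fold change and its *F* statistic. Each replicate number is 1 mouse in the study's methods. Deviations from the fraction means correlated by 0.182 to 0.658 within a mouse (4 pairs) and by −0.322 to 0.0931 between mice (12 pairs). Because such deviations sum to 0 within a fraction, the mean of −0.103 between mice follows from the values within mice. No 2 libraries were identical. The tests were checked on simulated counts that held no mouse effect, so the term for mouse was not checked. A floor of 3 counts is 0.0694 to 0.0986 CPM and covers counting error only.

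Members named by rule were *Cd81*, *Cd9*, *Cd63*, those called between the beta cell fractions, the 5 highest per kilobase in beta cells, and the 5 most positive and 5 most negative of those called in both comparisons with non-beta cells. Other members were added after their values were seen. The members and lists were chosen with earlier results of these data known. Alternatives were DESeq2 1.42.0, RLE size factors, total counts only, no filter, no replicate block, 2 fractions only, other thresholds, the 10 most abundant genes left out and each mouse left out. Promoter windows from RefSeq were found for 26 of the 27 members.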

Additional observations from a re-analysis of the deposited data

Results flagged for a closer look

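Among 52 groups of 4 beta cell libraries (26 members in 2 fractions), 1 library lay far from the others by Dixon's test in 11. In 7 of these the other libraries were above 0, and mouse 4 was the library in 5 of the 7. In the fraction labelled NNAT-positive, mouse 4 had 38.7 CPM of *Cd82* (others 57.6 to 59.9), 9.00 CPM of *Tspan14* (others 12.5 to 13.1), 160.3 CPM of *Tspan5* (others 231 to 239) and 306 CPM of *Tspan7* (others 431 to 451). In the fraction labelled NNAT-negative it had the highest *Tspan8*, 11.2 CPM (others 6.76 to 7.24). The remaining 2 were *Tspan8* in the library labelled NNAT-positive of mouse 2, 17.8 CPM (others 16.5 to 16.6), and *Tspan2* in that labelled NNAT-negative of mouse 3, 85.2 CPM (others 76.6 to 77.1). Chance picks about 1 group in 20 where values vary freely.

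That rate does not apply to the other 4, in which mouse 4 held the only counts and the other libraries were at 0, so the test was met by construction. These were 0.0228 CPM of *Tspan32* in the fraction labelled NNAT-positive, and 0.0547 CPM of *Cd37*, 0.109 CPM of *Cd53* and 0.0820 CPM of *Tspan18* in that labelled NNAT-negative. In 2 of the 52 groups all libraries were at 0.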

How the results depend on the processing

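Between the beta cell fractions, the number of members called higher was 1 in the reported test and 2 at an adjusted *p* below 0.05. It was 3 with DESeq2 or without the filter, and 0 with RLE size factors, without the replicate block, with only the libraries of the 2 fractions, with the 10 most abundant genes left out or with any 1 mouse left out. The number called lower was 0 under each of these settings. *Cd81* had a log2 fold change between 0.92 and 1.17 in all 12 fits and was called in 4. Over all genes, 9 were called higher and 0 lower, against 1 and 0 without the replicate block, 29 and 1 without the filter, 123 and 14 with DESeq2 and 0 and 0 without mouse 3.

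Members higher than non-beta cells numbered 6 for labelled-positive cells, and 3 when a more than 2-fold change was required, with total counts only or without the replicate block. With a mouse left out they numbered 3 to 5, the lowest without mouse 3. For labelled-negative cells, 5 fell to 3 with a more than 2-fold change, RLE size factors, total counts only, no replicate block, only the libraries of the 2 fractions or any 1 mouse left out. The number of lower members was between 11 and 14 for labelled-positive and between 12 and 15 for labelled-negative cells over the alternatives. The cause of these shifts was not tested.

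Log2 fold changes near 0 changed sign. Between the beta cell fractions, the values with DESeq2, RLE size factors, no filter, only the libraries of the 2 fractions and the 10 most abundant genes left out were −0.018, −0.018, −0.015, −0.019 and −0.018 for *Tspan3*, −0.021, −0.022, −0.018, −0.030 and −0.022 for *Tspan6*, −0.034, −0.035, −0.032, −0.038 and −0.035 for *Tspan14* and −0.036, −0.036, −0.032, −0.038 and −0.036 for *Tspan31*. With a mouse left out the ranges were −0.042 to 0.067 for *Tspan3*, −0.043 to 0.067 for *Tspan6*, −0.047 to 0.022 for *Tspan14*, −0.032 to 0.023 for *Tspan31*, −0.0094 to 0.090 for *Cd82*, −0.055 to 0.64 for *Cd9* and −0.28 to 0.20 for *Tspan17*. Against non-beta cells, *Tspan7* in labelled-positive cells was −0.062 with DESeq2, −0.062 with RLE size factors, −0.12 with total counts only, −0.079 without the replicate block and −0.068 to 0.085 with a mouse left out, and *Tspan6* there was −0.38 to 0.092. In labelled-negative cells *Tspan17* was 0.0057 with only the libraries of the 2 fractions. With a mouse left out, *Tspan17* was −0.45 to 0.20, *Tspan15* −0.11 to 0.046 and *Tspan6* −0.35 to 0.025.

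Depth limits the members near 0 in beta cells, whose fitted changes are not given.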
